A study of Homo sapiens with 18 samples.

Results

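The kallikreins and epithelial serine proteases described here are KLK5, KLK6, KLK7, KLK8, KLK10, KLK11, PRSS22, PRSS3, TMPRSS2 and TMPRSS4. They were the rows of both deposited count tables whose Ensembl identifier has any of these symbols in the GENCODE annotation of GRCh38, 10 of 61541 genes. The set was drawn up with the changes under sodium propionate (SP) against control already known, so for these 10 genes the values of SP against control are given as a description, and nothing is read from how many of them pass a threshold. The comparisons between the SP time points were not named by the rule and were tested. They use the same SP libraries that the choice of members rested on, so their p-values and counts are not independent of that choice.

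All libraries came from A549, an established human lung adenocarcinoma cell line that the labels list as a wild-type NSCLC line, grown in high glucose DMEM with 10% fetal bovine serum. SP, the sodium salt of a short-chain fatty acid, was given at 5 mM. The 18 RNA-seq libraries fell into 6 groups of 3. Control 3 days, SP 3 days and SP 12 days made up the days table, and Control 24 h, SP 3 h and SP 24 h the hours table, the control groups being untreated. SP 12 days was set against the 3 day control, so SP and time in culture cannot be told apart there. SP 3 h was set against the 24 h control, with the same limit. The labels do not say that replicates came from separate cultures, so any p-value measures the spread between these libraries only.

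Kallikreins are secreted serine proteases whose genes stand side by side on chromosome 19, and they are made as inactive precursors that are activated by cleavage. In stratified epithelia they act as a cascade in which trypsin-like KLK5 activates chymotrypsin-like KLK7, and both cut the corneodesmosomes that hold shed cells together. PRSS22 is a tryptase of airway epithelium, PRSS3 is mesotrypsin, a trypsin that resists and can cleave trypsin inhibitors, and TMPRSS2 and TMPRSS4 are membrane-anchored proteases that can cleave viral glycoproteins. Kunitz-type, Kazal-type and serpin inhibitors restrain these enzymes, and the protease-activated receptor PAR2 (F2RL1) is a known target.

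Assigned reads ranged from 14187401 to 43765330 per library. All 11 epithelial and A549 markers had reads in every group, and CDKN2A, deleted in A549, had 0 reads in every library. SP 12 days replicate 3, the deepest of its group with 21992046 reads, stood apart from its group: without it, 300 in place of 32 genes were called between SP 12 days and SP 3 days. Markers of fibroblasts summed to 15.5 to 16.8 CPM (counts scaled to a common library size, with TMM factors) in Control 3 days, 63.8 to 74.3 in SP 3 days and 36.2 to 65.5 in SP 12 days, with 5, 6 and 6 of 7 markers detected and COL1A2 at 0 in all 3 groups. In the other table the sum was 6.77 to 22.5 in Control 24 h, 19.1 to 39.1 in SP 3 h and 63.3 to 91.2 in SP 24 h, with DCN at 0. Immune markers summed to 17.4 to 18.8, 34.7 to 38.0 and 13.6 to 26.8 CPM in Control 3 days, SP 3 days and SP 12 days with CD3E at 0. The immune sum over the hours libraries was 3.54 to 4.38 in Control 24 h, 2.93 to 5.07 in SP 3 h and 14.8 to 17.0 in SP 24 h, where CD3E and PTPRC were at 0. Endothelial markers stayed at or under 3.06 CPM in sum. The part of these markers in the results was not tested. In bulk RNA, more cells with a transcript and more transcript per cell cannot be told apart.

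The stretches upstream of KLK10, KLK7, KLK6 and PRSS3 are shown because these members, of those with a promoter window, had the largest number of reads after SP. RefSeq promoter windows of GRCh38.p14, each 250 bases before to 50 bases after a start, were given for 6 of the 10 genes, namely KLK5, KLK6, KLK7, KLK10, KLK11 and PRSS3. Only bases outside annotated exons are printed, 5′ to 3′ on the strand of the gene, and capitals mark the motifs searched on both strands: CACCTG, the E-box read by ZEB and SNAI factors, GGGCGG, the GC box, and TGANTCA, the AP-1 site. KLK10 is at chr19:51019710-51019819 on the minus strand, KLK7 at chr19:50984100-50984314 on the minus strand, KLK6 at chr19:50969674-50969841 on the minus strand and PRSS3 at chr9:33795311-33795560 on the plus strand.
KLK10: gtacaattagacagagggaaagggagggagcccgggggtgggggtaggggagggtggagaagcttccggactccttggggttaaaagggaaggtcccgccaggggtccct
KLK7: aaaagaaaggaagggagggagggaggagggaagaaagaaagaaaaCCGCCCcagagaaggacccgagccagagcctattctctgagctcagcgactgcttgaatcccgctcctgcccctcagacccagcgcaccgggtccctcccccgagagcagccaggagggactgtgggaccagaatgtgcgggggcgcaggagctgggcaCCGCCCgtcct
KLK6: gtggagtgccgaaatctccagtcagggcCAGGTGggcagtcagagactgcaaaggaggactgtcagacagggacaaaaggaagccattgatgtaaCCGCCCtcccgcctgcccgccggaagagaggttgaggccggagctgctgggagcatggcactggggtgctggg
PRSS3: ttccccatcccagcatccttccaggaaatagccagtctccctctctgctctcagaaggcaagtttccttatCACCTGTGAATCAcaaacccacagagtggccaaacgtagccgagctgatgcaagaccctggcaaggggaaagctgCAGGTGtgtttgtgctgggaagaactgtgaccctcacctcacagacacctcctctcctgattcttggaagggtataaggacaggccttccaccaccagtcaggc

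The KLK10 stretch held none of these letters, and neither of the KLK10 windows did. KLK7 showed the GC box on the opposite strand, 2 times in its 215 bases, and KLK6 the E-box and the GC box, 1 each, both on the opposite strand. PRSS3 held the E-box on each strand and, directly after the first of them without overlap, the AP-1 letters. This PRSS3 start lies inside the annotated gene, which begins at 33750679, and the counts do not say which start was used. Among 35116 windows of the same length, 20.6% held CACCTG, 45.0% GGGCGG and 7.71% TGANTCA. The letters AACCNGTT (GRHL factors, 1.73% of windows) and TATAAA (read on the gene strand only, 7.33%) were in no window of these 6 genes, and CCAAT (34.6%) was in windows of KLK7 only, in its exons. A match is a description of letters and not of a bound site.

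KLK10, an epithelial kallikrein at chr19:51012739-51020175, went from a few reads per library to 70 or more. In Control 3 days it had 2, 1 and 2 reads, in SP 3 days 70, 75 and 91, and in SP 12 days 128, 176 and 217. No library of a group overlapped another group. Scaled for depth, its level was 0.0920 ± 0.0279 CPM (SD, n = 3) in Control 3 days, 4.75 ± 0.609 in SP 3 days and 8.81 ± 0.757 in SP 12 days. The log2 fold change against control was 5.58 (SE 0.308) at 3 days and 6.47 (SE 0.282) at 12 days, ranks 44 and 21 among 17775 tested genes. With 5 control reads in all, the ratio of summed reads at 12 days, 95.9, had a 95% interval from 40.8 to 297 for counting error alone. The overlapping transcript on the other strand, ENSG00000268739, shares 240 exon bases with KLK10 and had 0 reads in every group.

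In the first day KLK10 had most reads at 24 h. Control 24 h had 0, 1 and 4 reads, SP 3 h 4, 12 and 3, and SP 24 h 47, 74 and 45. The SP 24 h libraries lay above all others, while the SP 3 h and Control 24 h libraries overlapped. Levels were 0.0643 ± 0.0708 CPM (SD, n = 3), 0.264 ± 0.134 and 1.69 ± 0.193, and the log2 fold change against control was 1.80 (SE 0.715) at 3 h and 4.42 (SE 0.543) at 24 h. The value at 24 h moved to 5.75 without Control 24 h replicate 3 and to 3.93 without Control 24 h replicate 1, and the value at 3 h to 3.14 without Control 24 h replicate 3, since that library holds 4 of the 5 control reads. Between SP 24 h and SP 3 h, KLK10 was higher in 3 of 3 libraries, by 2.62 on the log2 scale (SE 0.431). In the hours table it passed the filter on low counts only through the 3 SP 24 h libraries, so no p is given for that difference. Between SP 12 days and SP 3 days, where all libraries of both groups reached the filter level, it was higher in 3 of 3 by 0.89 (SE 0.152, edgeR adjusted p = 0.00215).

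PRSS22, the airway tryptase at chr16:2852730-2858170, was low in the hours table and rose late. It had 49, 27 and 44 reads in Control 3 days, 94, 102 and 103 in SP 3 days, and 325, 406 and 495 in SP 12 days, and no groups overlapped. Levels were 2.21 ± 0.468, 6.02 ± 0.265 and 20.9 ± 0.884 CPM (SD, n = 3), which gave log2 fold changes of 1.44 (SE 0.160) at 3 days and 3.23 (SE 0.147) at 12 days. From SP 3 days to SP 12 days PRSS22 rose 3.46-fold, a log2 fold change of 1.79 (SE 0.130, edgeR adjusted p = 1.7e-06), rank 48 of 17775 genes. The Control 24 h libraries held 8, 0 and 8 reads, the SP 3 h libraries 3, 6 and 3, and the SP 24 h libraries 11, 24 and 13. Untreated levels differed between the tables, at 0 to 0.423 CPM in Control 24 h and 1.69 to 2.60 CPM in Control 3 days, which was not tested. In the hours table SP 24 h lay highest. Here the log2 fold change was -0.46 (SE 0.733) at 3 h and 0.99 (SE 0.594) at 24 h against control, and 1.45 (SE 0.628) between SP 24 h and SP 3 h. PRSS22 reached the filter level there in 3 SP 24 h libraries, in 1 of Control 24 h and in 0 of SP 3 h, so no p is given. The 24 h value ranged from 0.47 without Control 24 h replicate 2 to 1.501 without Control 24 h replicate 1.

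ENSG00000263325, on the strand opposite PRSS22 and sharing 29 exon bases with it, had 9 reads over Control 3 days, 27 over SP 3 days and 163 over SP 12 days. The strand setting of the counting is not given in the sources used here, so the reads of this pair cannot be fully told apart.

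PRSS3, mesotrypsin, at chr9:33750679-33799231, was the member with most transcript per length in every group. Its level per kilobase of exon was 10.6 ± 1.77 CPM per kb (SD, n = 3) in Control 3 days, 20.4 ± 1.01 in SP 3 days and 28.9 ± 0.962 in SP 12 days. PRSS22 followed at 0.926 ± 0.196, 2.53 ± 0.111 and 8.76 ± 0.371, and KLK10 at 0.0242 ± 0.00734, 1.25 ± 0.160 and 2.32 ± 0.199. Over the hours libraries the levels per kilobase were 14.5 ± 2.92, 16.3 ± 2.62 and 22.6 ± 2.93 for PRSS3 in Control 24 h, SP 3 h and SP 24 h. There PRSS22 and KLK10 changed order, with 0.0984 ± 0.0903 against 0.0169 ± 0.0186 in Control 24 h, 0.0738 ± 0.0199 against 0.0696 ± 0.0353 in SP 3 h and 0.199 ± 0.0230 against 0.445 ± 0.0509 in SP 24 h. In Control 24 h and SP 3 h this pair lay within its spread.

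Reads of PRSS3 were 320, 199 and 296 in Control 3 days, 451, 490 and 503 in SP 3 days and 674, 799 and 931 in SP 12 days. The groups did not overlap after scaling, at 15.1 ± 2.52, 29.1 ± 1.43 and 41.2 ± 1.37 CPM (SD, n = 3). PRSS3 stood at a log2 fold change of 0.95 (SE 0.112) at 3 days, a 1.93-fold difference just under the 2-fold line, and at 1.45 (SE 0.111) at 12 days. The step from SP 3 days to SP 12 days was 0.50 (SE 0.106, edgeR adjusted p = 0.00888), and its adjusted p became 0.0599 without SP 3 days replicate 1 and 0.0550 without SP 12 days replicate 1. At the early times it had 480, 354 and 507 reads in Control 24 h, 388, 621 and 543 in SP 3 h and 915, 1307 and 902 in SP 24 h. The SP 24 h libraries, at 29.2 to 37.0 CPM, lay above those of Control 24 h, at 17.8 to 25.4 CPM, and the log2 fold change was 0.64 (SE 0.178), against 0.17 (SE 0.179) at 3 h. Between SP 24 h and SP 3 h the difference of 0.48 (SE 0.178) had an adjusted p of 0.0882.

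Near-identical trypsin genes could share reads with PRSS3. PRSS1, PRSS2, PRSS3P1 and PRSS3P3 had at most 1 read in any group, and PRSS3P4 had 2 to 8 reads per group. The rule for reads mapped to several places is not given, so these counts cannot show whether PRSS3 gained or lost such reads.

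**Figure D1:**
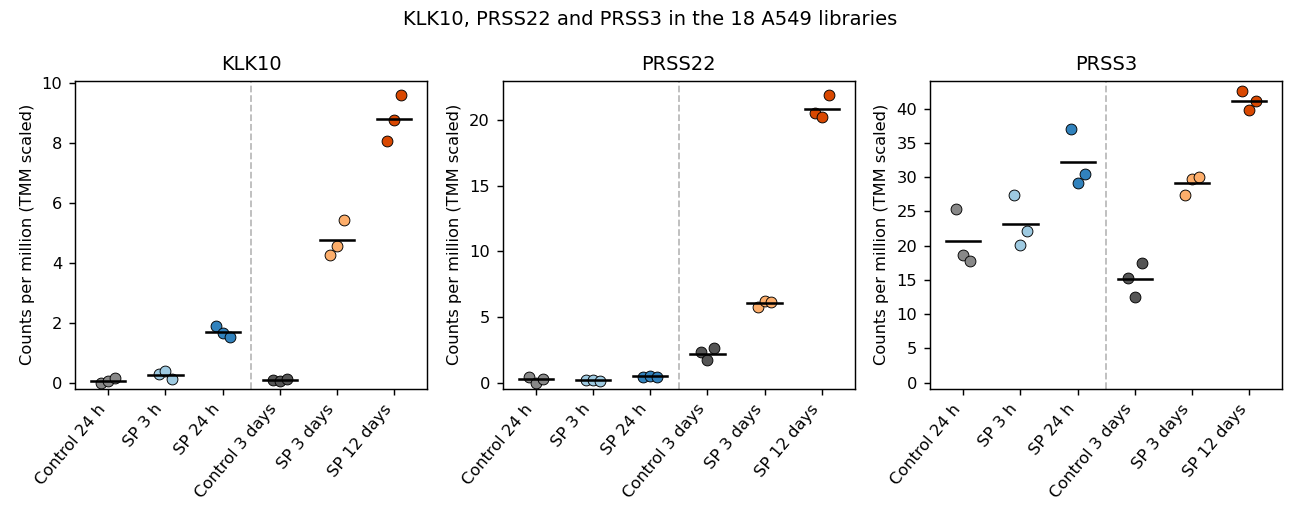
KLK10, PRSS22 and PRSS3 in CPM (vertical axes, linear, TMM scaled) in the 6 groups (horizontal axes), with points for libraries and lines for the mean of 3. A dashed line parts the tables. PRSS22 stays at or under 0.536 in the hours libraries, and all SP 12 days libraries lie above all SP 3 days libraries in each panel.

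By the cut-offs of the study (0.0001 for the adjusted p, with at least a 2-fold change), 2 of the 10 members were called higher at SP 3 days, against 6.58% of all tested genes, and 3 at SP 12 days, against 6.88%, with only 3 members testable. Those shares are the background and support nothing, since the members were chosen on these comparisons. From SP 3 days to SP 12 days only PRSS22 was called, against a background of 0.152% of genes called higher. By the softer cut-off of 0.05 for the adjusted p, 3 of the 10 members were higher in SP 12 days than in SP 3 days, against 4.46% of tested genes. Both counts rest on SP libraries that the choice of members used, so they support nothing either. Among the hours libraries edgeR called none of the members at 3 h, at 24 h or between them (background 0%, 0.622% and 0.0288% higher). The counts for an unadjusted p under 0.05 were 1, 2 and 3, against 4367, 7146 and 5996 of 17377 tested genes in either direction. DESeq2 called 0, 1 and 1 members, against 415, 1192 and 656 genes in either direction. KLK10 and PRSS22 are among the members tested there, with the limit on the filter given above, so these counts support nothing. The softer cut-off gave 1 member, KLK10, between SP 24 h and SP 3 h, against 11.7% of tested genes, and its passage through the filter by the SP 24 h libraries alone leaves that count without weight. With every gene that had a read tested, 5 members were called at 12 days, 1 at 24 h and 1 between SP 24 h and SP 3 h, against 4.46%, 2.61% and 1.4%.

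The other 7 members had too few reads to pass the filter on low counts in either table, and are given as reads. In the days table the 7 together had 0 to 3 reads in the control libraries, 11 to 16 in SP 3 days and 17 to 81 in SP 12 days. Together they came to 3.58 CPM in SP 12 days replicate 3 and to 1.96 and 0.847 in the other replicates. No library of the hours table held more than 12.

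KLK7, the chymotrypsin-like kallikrein at chr19:50976468-50984099, had 0, 0 and 1 reads in Control 3 days, 0, 1 and 2 in SP 3 days, and 10, 3 and 28 in SP 12 days. The SP 12 days libraries lay above the others, with 41 reads against 1 in control, a ratio of 37.7 (95% interval 6.41 to 1527, exact, counting error only). Against SP 3 days the ratio was 11.6 (3.70 to 58.5), and it was 5.99 (1.65 to 32.8) without SP 12 days replicate 3, which held 68.3% of the group's reads, and 23.0 (3.91 to 931) without SP 3 days replicate 3. The ratio to control was 19.5 (2.93 to 829) without SP 12 days replicate 3. Leaving out replicate 1 of the control gave 23.1 (3.92 to 933), and leaving out its replicate 3, which held the single control read, gave at least 8.63. Over the hours libraries 1 read was found.

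KLK8, neuropsin, at chr19:50996007-51002711, had 0 reads in each Control 3 days library, 3, 3 and 4 in SP 3 days, and 9, 1 and 26 in SP 12 days. Its summed reads were at least 11.1-fold higher at 12 days and at least 3.62-fold higher at 3 days than the floor of 3 control reads over the group. SP 12 days replicate 3 held 72.2% of the 12 day reads. Without it the bound at 12 days was 5.00 and the ratio to SP 3 days fell from 3.05 (1.48 to 6.90) to 1.38 (0.516 to 3.70). SP 24 h had 0, 3 and 6 reads, and SP 3 h and Control 24 h had none. KLK8 shares 747 exon bases with KLK9 and with the readthrough gene ENSG00000269741, both of which had 0 reads throughout. KLK9 shares 1390 of its 1443 exon bases with KLK8 and the readthrough gene. How reads over shared bases were assigned is not given, so the 0 counts cannot show whether KLK9 was expressed or whether KLK8 lost reads.

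KLK6, a trypsin-like kallikrein at chr19:50958631-50969673, had 0 reads in Control 3 days, 1, 2 and 0 in SP 3 days and 7, 4 and 9 in SP 12 days. The 12 day sum of 20 was at least 6.14-fold higher than the floor, and 5.65-fold (1.68 to 29.7) that of SP 3 days. Replicate 3 held 45.0% of the 12 day reads, and the ratio to SP 3 days was 5.07 (1.34 to 28.3) without that library. It was 11.3 (1.81 to 470) without SP 3 days replicate 2 and 3.74 (1.11 to 19.7) without SP 3 days replicate 3. The floors of Control 3 days rest on its depth, and leaving out its replicate 1 took the 12 day bound of KLK6 to 3.75 and the bounds of KLK8 to 2.21 at 3 days and 6.75 at 12 days. The hours groups held 2, 3 and 3 reads in Control 24 h, SP 3 h and SP 24 h.

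TMPRSS2, at chr21:41464300-41531116, had 1, 0 and 0 reads in Control 3 days, 10, 5 and 7 in SP 3 days and 3, 4 and 13 in SP 12 days. The ratio to control was 23.9 (3.86 to 986) at 3 days and 18.4 (2.95 to 763) at 12 days, and 0.771 (0.399 to 1.48) between the SP time points, or 0.440 (0.159 to 1.07) without SP 12 days replicate 3. Without the control library that held the read, the ratios were at least 4.87 and 3.75. The 12 day ratio was 10.5 (1.35 to 473) without SP 12 days replicate 3, with 65.0% of that group's reads. TMPRSS2 shares 562 exon bases with MX1, an antiviral gene on the other strand, which had 154, 168 and 233 reads over the same groups. How far reads of MX1 enter TMPRSS2 was not tested.

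KLK11, at chr19:51022216-51028039, had 0 reads in Control 3 days, 4 over SP 3 days and 7 over SP 12 days, at least 2.15-fold the floor at 12 days. TMPRSS4, at chr11:118077012-118121890, had 2, 0 and 4 reads over the days groups and 2 over the hours groups. KLK5, the activator at chr19:50943303-50953093, had 1 read, in SP 12 days. At this depth no change of TMPRSS4 or KLK5 was detectable.

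Counting members whose libraries did not overlap, 5 of 10 were higher in SP 3 days and 8 of 10 in SP 12 days than in Control 3 days, against 17.2% and 16.5% of all genes with reads, numbers that the choice of members fixes. In SP 12 days against SP 3 days, 5 of 10 (KLK6, KLK7, KLK10, PRSS22 and PRSS3) were separate and higher, against 8.17% of genes with reads. That count is not independent of the choice of members either. In SP 24 h, 3 of 10 (KLK10, PRSS22 and PRSS3) were separate from control and from SP 3 h, against 15.8% and 14.4%, and none was separate in SP 3 h against control, against 9.19%.

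**Figure D2:**
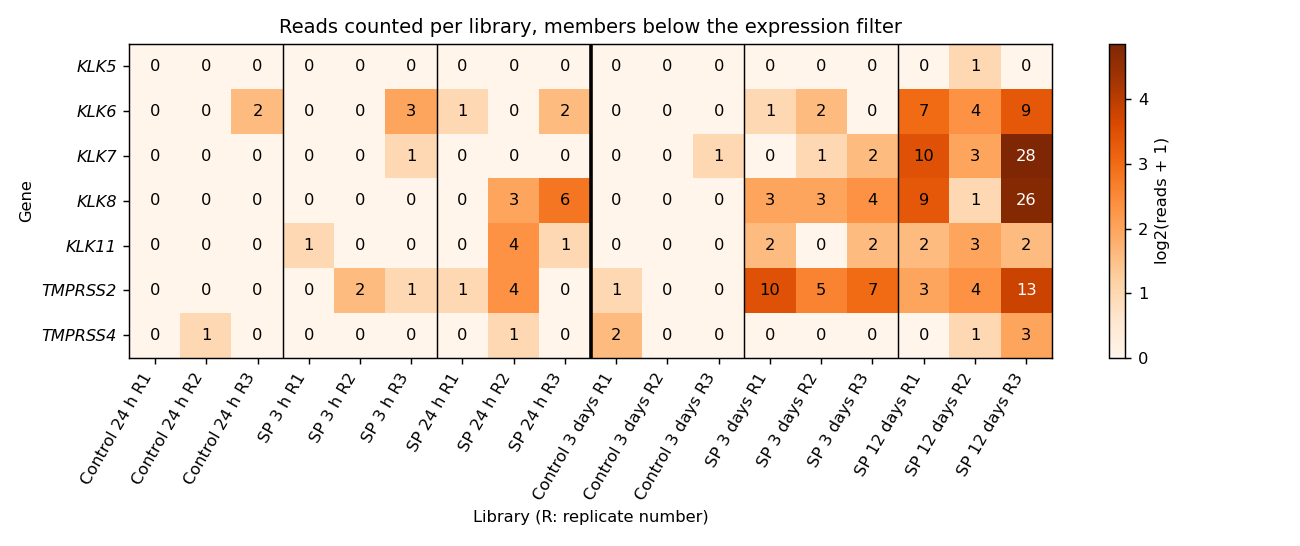
Reads of the 7 members under the filter (rows) in each of the 18 libraries (columns), with the count printed and colour on a log2(reads + 1) scale; thin lines part groups and the thick line the tables. The 10 to 28 read values of KLK7, KLK8 and TMPRSS2 sit in the SP libraries of the days table, 3 of the 5 in SP 12 days replicate 3.

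Among the 9 other kallikreins of the locus, KLK4 and KLK1 had more reads at 3 days and KLK14 had fewer. KLK4, a kallikrein of enamel maturation, had 0 reads over Control 3 days, 25 over SP 3 days and 64 over SP 12 days, at least 9.05-fold and 19.6-fold the floor, and 62.5% of the 12 day reads were in replicate 3. Without that library, or without Control 3 days replicate 1, the 12 day bound was 12.0, and the 3 day bound was 5.53 without the latter. KLK1, tissue kallikrein, had 8, 51 and 23 reads over Control 3 days, SP 3 days and SP 12 days. Its log2 fold change was 2.73 (SE 0.532) at 3 days, 1.35 (SE 0.615) at 12 days and 3.58 (SE 0.596) at 24 h, where 4 reads of control met 79. Only SP 3 days and SP 24 h libraries of KLK1 reached the filter level, so no p is given for it. Replicate 3 held 6 of the 8 and 3 of the 4 control reads, and without it the ratio of summed reads went from 6.92 to 18.98 at 3 days, from 2.65 to 7.26 at 12 days and from 13.2 to 30.2 at 24 h. From SP 3 days to SP 12 days KLK1 went from 51 to 23 reads, a ratio of 0.382 (0.223 to 0.637, counting error only). KLK14, below the filter, had 35, 15 and 11 reads, ratios of 0.465 (0.236 to 0.875) and 0.289 (0.133 to 0.583) to control. KLK9 had no reads, with the limit on shared exon bases given above. KLK13 had 1 read over Control 3 days, 18 over SP 3 days and 12 over SP 12 days.

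The window of 200 kb to each side held 28 protein-coding genes, with the 15 kallikreins, the readthrough gene and 12 flanking genes, 5 of those tested. SHANK1, a synaptic scaffold, went from 40 to 433 and 550 reads (log2 fold change 3.54 and 3.64, edgeR adjusted p = 8e-09 and 4.77e-09). SYT3, a synaptotagmin, went from 57 to 265 and 383 reads (2.32 and 2.60, adjusted p = 6.81e-06 and 1.5e-06). On the other side CTU1, a tRNA thiolation enzyme, fell by 0.61 at 3 days and by 0.60 at 12 days on the log2 scale (adjusted p = 0.00111 and 0.00113). The median log2 fold change of the 5 flanking genes was 0.0275 at 3 days and -0.32 at 12 days.

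**Figure D3:**
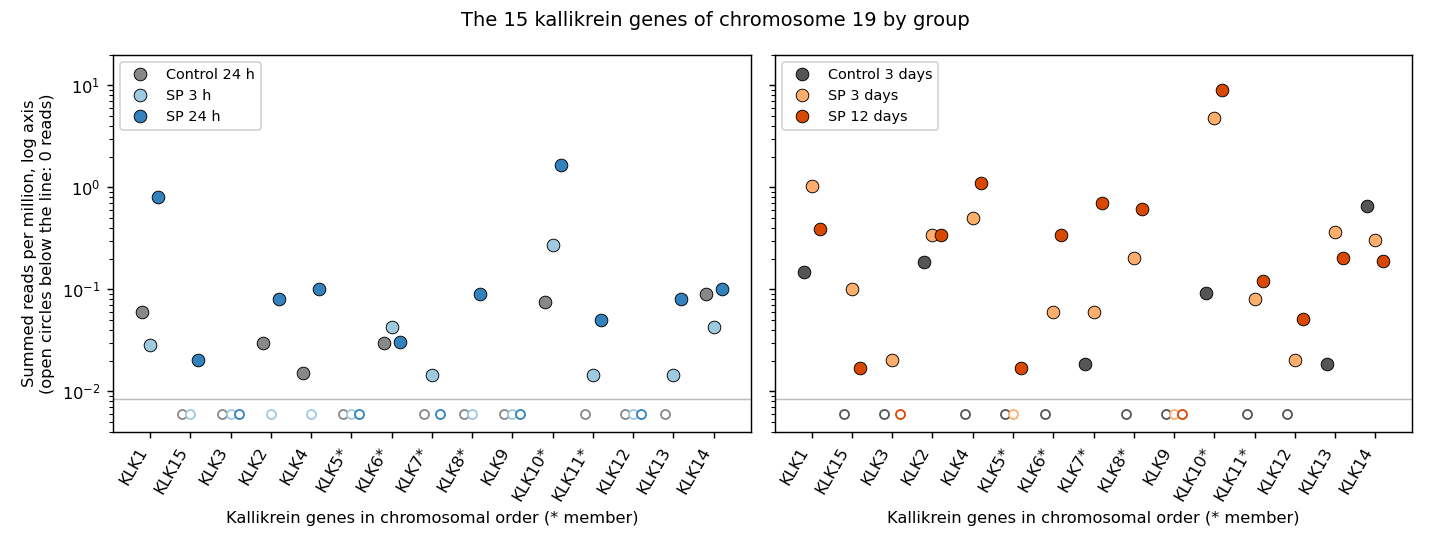
Summed reads as CPM (vertical, log axis) of the 15 kallikrein genes in chromosomal order (horizontal) for the 3 groups of each table; filled circles are groups with reads, open circles below the line are groups with 0 reads, and stars mark members. KLK10 stands highest at SP 12 days and KLK14 is the gene whose SP groups lie below Control 3 days.

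Several inhibitors of serine proteases rose. Of 26 listed, 12 were tested, and 4 were called higher and none lower after 12 days (9 higher by the 0.05 cut-off), against 6.88% and 26.4% of all tested genes higher, with a median log2 fold change of 0.96 against -0.00374 over all tested genes. SPINT1, a Kunitz inhibitor of membrane proteases such as matriptase, rose by 3.06 at 3 days (SE 0.242, adjusted p = 1.51e-06). In the hours table SPINT1 stood above control by 5.22 at 24 h (SE 0.350) and by 1.86 at 3 h (SE 0.399). No p is given for these 24 h and 3 h values, since 0 of 3 Control 24 h libraries of SPINT1 reached the filter level. In the days table the Kazal inhibitors SPINK6, which blocks kallikreins, and SPINK13 rose late. SPINK6 had 4 to 7 reads in Control 3 days, 2 to 8 in SP 3 days and 35 to 48 in SP 12 days, 3.21 higher in SP 12 days than in SP 3 days (SE 0.454). SPINK13 went from 0 to 3 and 2 to 13 to 39 to 78 reads, with a difference of 2.62 between SP 12 days and SP 3 days (SE 0.421). WFDC2 changed by 4.28 (SE 1.02) at 3 days, and SERPINA5 by 2.63 (SE 0.698, adjusted p = 0.0166). SPINK5, which encodes the skin inhibitor LEKTI, had at most 3 reads in a library. In the days table no control library of SPINK6, SPINK13 or WFDC2 reached the filter level. These genes passed it through SP libraries, so no p is given for them. They are among the 12 tested inhibitors, so the counts and the median of this list are a description and support nothing. SPINT2 and SERPINB1 were the inhibitors with most transcript per length in Control 3 days, at 109 and 44.5 CPM per kb.

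Other trypsin-fold proteases were 25, of which 11 were tested, and 3 were called higher and none lower at 3 days and at 12 days, with 8 and 6 higher by the 0.05 cut-off. Of all tested genes 6.58% and 6.88% were called higher, and 25.2% and 26.4% were higher by the 0.05 cut-off. The medians were 1.41 and 0.78. PRSS56 rose by 4.54 at 3 days (SE 0.505) and 3.55 at 12 days (SE 0.552), and PRSS12, neurotrypsin, by 2.13 (SE 0.205, adjusted p = 5.21e-07) and 2.45 (SE 0.200, adjusted p = 7.35e-08). PRSS8, prostasin, which activates the epithelial sodium channel, changed by 2.37 (SE 0.757) at 3 days from 0 to 3 reads in the control libraries. No control library of PRSS8 or PRSS56 reached the filter level, so no p is given for them. Both are among the 11 tested, so the counts and medians of this list are a description and support nothing. PRSS23, PRSS16 and PRSS27 led in Control 3 days at 51.0, 1.997 and 0.871 CPM per kb. The tryptase TPSG1 rose by 1.95 at 24 h (SE 0.383). It reached the filter level there in 1 of 3 Control 24 h libraries and in 3 SP 24 h libraries, so no p is given.

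Of 16 other membrane serine proteases, 5 were tested in the days table and none was called by edgeR in either direction, with 1 higher at 3 days and 1 lower at 12 days by the 0.05 cut-off. Of all 17775 tested genes, 8634 and 8858 passed the adjusted cut-off of 0.05 at 3 and 12 days, in either direction. At an unadjusted p under 0.05 there was 1 in each of these comparisons, against 9770 and 9940 of all tested genes. DESeq2 called 0, against 1774 and 1900 genes. Of 3 tested among the hours libraries, 2 rose at 24 h by that cut-off, against 16.8% of tested genes. These were TMPRSS6, matriptase-2, by 1.79 (SE 0.503), and ST14, matriptase, by 1.56 (SE 0.438). No p is given for either, since 0 of 3 Control 24 h libraries of ST14 and 1 of 3 of TMPRSS6 reached the filter level. The count of 2 at 24 h rests on these genes and is a description only. Highest in Control 3 days were TMPRSS9, TMPRSS6 and TMPRSS5, at 0.787, 0.449 and 0.355 CPM per kb.

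Receptors and substrates were 25, of which 17 were tested. At 12 days 3 were called higher and 1 lower, with 8 higher and 3 lower by the 0.05 cut-off, against 6.88% and 26.4% of all tested genes higher, and the median log2 fold change was 0.27. EPCAM, a cell adhesion protein and a matriptase substrate, rose by 1.36 (SE 0.142, adjusted p = 1.47e-06) at 3 days and by 2.45 (SE 0.140, adjusted p = 1.93e-09) at 12 days, and was 1.09 higher at 12 than at 3 days (SE 0.130, adjusted p = 1.44e-04). CDCP1, a transmembrane protein cut by serine proteases, rose by 1.68 and 2.30 (SE 0.122 and 0.123, adjusted p = 3.84e-08 and 1.28e-09). CLDN7, a tight junction protein bound to EPCAM, rose by 1.74 at 3 days (SE 0.264, adjusted p = 5.3e-05) and 4.01 at 24 h (SE 0.441). No p is given for CLDN7 at 24 h, where 0 of 3 Control 24 h libraries reached the filter level. SCNN1A, the sodium channel subunit that these proteases can activate, rose by 2.30 at 24 h (SE 0.366, adjusted p = 0.00200). F2RL2, the receptor PAR3, fell by 1.24 at 12 days (SE 0.194, adjusted p = 7.44e-05), and the kinin receptor BDKRB1 by 1.14 (SE 0.250, adjusted p = 0.00136). The growth factor HGF fell by 1.57 at 12 days (SE 0.417). HGF reached the filter level in 3 Control 3 days libraries and in 0 of SP 3 days and SP 12 days, so no p is given. It is among the 17 tested, so the counts of lower genes in this list are a description. MET, F2RL1 and F2R led in Control 3 days at 33.8, 30.5 and 10.5 CPM per kb.

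Genes of stratified, cornified epithelium, the usual setting of KLK5 and KLK7, numbered 23. Of these, 6 were tested in the days table, and 1 was called higher and 3 rose by the 0.05 cut-off after 12 days, against 6.88% and 26.4% of all tested genes higher, where the median log2 fold change was 0.64. The called gene was FLG, filaggrin, by 1.37 (SE 0.199, adjusted p = 3.5e-05), followed by KRT16 by 1.32 (SE 0.367) and SFN by 1.18 (SE 0.232, adjusted p = 0.00270), while TP63, the basal cell factor, fell by 1.19 (SE 0.263, adjusted p = 0.00333). KRT16 reached the filter level in 0 libraries of Control 3 days, 1 of SP 3 days and 3 of SP 12 days, so no p is given. It is among the 6 tested, so the counts and the median of this list are a description. IVL, KRT1, KRT14, LORICRIN and CALML3 had 0 reads throughout the days libraries.

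Genes whose 4 log2 fold changes against control lay nearest to a member's, by root mean square difference over 16653 genes, were MAN1A1 (0.418), KIF1A (0.506) and NSG1 (0.538) for KLK10. For PRSS22 they were TMEM132D-AS1 (0.299), ENTREP1 (0.407) and ZNF468 (0.410), and for PRSS3 they were LINC02762 (0.103), ELFN2 (0.126) and PDP1 (0.130). The likeness is over 4 comparisons that share 2 control groups, and is a description.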

How the data were processed

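RNA-seq was made from A549 cells, 18 libraries in 6 groups of 3, from total RNA with the NEBNext Ultra RNA kit. The deposited values are raw read counts per gene. Per the study's methods and the submitters' processing notes, the authors aligned reads with STAR 2.7.9a to GRCh38 and counted with featureCounts, and used R 4.2.1 and DESeq2 1.36.0. The strand setting and the rule for reads mapped to several places are not given in the sources used here.

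The counts were tested with edgeR 4.0.16 in R 4.3.3 (robust quasi-likelihood fit, TMM scaling, filterByExpr with a minimum count of 10, the 9 libraries of a table in a single fit, Benjamini-Hochberg adjustment over the 17775 or 17377 tested genes). Of the 10 members, 3 passed the filter in each table. Called means an adjusted p below 0.0001 with at least a 2-fold change. The tables were counted separately, so tests ran only within a table. Symbols and positions came from GENCODE on GRCh38, and promoter windows from RefSeq. Low-read members are given as ratios of summed reads with exact 95% intervals, with a floor of 3 counts over a group at 0. Intervals and floors cover counting error only. DESeq2 1.42.0 was an alternative. The fits were tested on simulated counts with known changes, and the outcome is not reported here.

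Members and lists were chosen with earlier results of these data known. From each list the text names up to 3 genes higher and 3 lower that pass 0.05 for the adjusted p with a 2-fold change, and the 3 with most counts per kilobase in control; SPINK5, KLK9, KLK13 and KLK14 were named outside that rule after their values were seen. A gene of the inhibitor list is counted but not reported here, in the text or the plot. Same-numbered replicates correlated in their deviations from the group means in SP 24 h against Control 24 h only (r = 0.499, 0.170 and 0.504). SP 24 h replicate 2 correlated as much with Control 24 h replicate 3 (r = 0.175), and the labels give no pairing. Whether the numbers pair libraries therefore stays unknown. The main fit has no block, and the replicate number as a block was an alternative.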

Additional observations from a re-analysis of the deposited data

Results flagged for a closer look

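Of the members, 3 differed between SP 12 days and SP 3 days by the test of the difference itself. From SP 3 days to SP 12 days the log2 fold change rose by 1.79 for PRSS22, by 0.89 for KLK10 and by 0.50 for PRSS3 (edgeR adjusted p = 1.7e-06, 0.00215 and 0.00888). The members were chosen with changes in the same SP libraries known, so these p-values are not independent of the choice. KLK10 was also 2.62 higher in SP 24 h than in SP 3 h, a value without support from a test, since the gene passed the filter only through the SP 24 h libraries. Each was higher in 3 of 3 later libraries than in any earlier one. For the 12 day step, SP and time in culture cannot be told apart.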

How the results depend on the processing

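The fold changes of KLK10, PRSS22 and PRSS3 kept their direction under the alternatives run, except that PRSS22 at 3 h, which was not called, ranged from -0.97 to 0.06 when each library was left out in turn. The number of members called at 12 days was 5 in place of 3 without the filter on low counts, where KLK7 and KLK8 were added, and it ranged from 3 to 4 over the fits that left out a library (4 without SP 12 days replicate 2, which added KLK7; 2 to 3 at 3 days, 3 without Control 3 days replicate 3, which added PRSS3; 1 between SP 12 days and SP 3 days, and 0 in the hours table). In SP 24 h against Control 24 h and in SP 24 h against SP 3 h the count was 0, and it became 1, KLK10, with DESeq2 and without the filter. By the cut-off of 0.05 for the adjusted p alone it was 2 against Control 24 h and 1 against SP 3 h. Of all tested genes 16.8% and 11.7% were higher by that cut-off. These counts carry no weight, for the reasons given above. With the replicate number as a block, KLK10 at 24 h stood at 4.39 on the log2 scale against 4.42, and the block changed no member's call. Between SP 24 h and SP 3 h, where same-numbered replicates had r = 0.0332, 0.377 and -0.285, the block moved the adjusted p of PRSS3 from 0.0882 to 0.0196. Over all genes the block left 2 in place of 119 calls at 24 h, 15 in place of 32 between SP 12 days and SP 3 days, and 1 in place of 5 between SP 24 h and SP 3 h. With GC content and length trends removed, the calls were 98 at 3 h, 404 at 24 h, 87 between SP 24 h and SP 3 h and 21 between SP 12 days and SP 3 days, and with only the groups compared in the fit they were 4 at 24 h, 2 between SP 24 h and SP 3 h and 5 between SP 12 days and SP 3 days. Calls over all genes by DESeq2 were 415 in place of 0 at 3 h, 1192 in place of 119 at 24 h, 656 in place of 5 between SP 24 h and SP 3 h, and 95 in place of 32 between SP 12 days and SP 3 days. Leaving out each library gave 1 to 87 calls at 24 h, 1 to 12 between SP 24 h and SP 3 h, and 6 (without SP 3 days replicate 2) to 300 (without SP 12 days replicate 3) between SP 12 days and SP 3 days. Depth limits the 7 low-read members, for which single libraries decide most ratios.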
